A study of Mus musculus with 51 samples.

Results

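The olfactory receptors (ORs) that gained or lost share of the pS6-IP-Seq reads between a 1% dose and undiluted (100%) 2-sec-butyl-4,5-dihydrothiazole (SBT) are described here by a direct contrast of 3 libraries from mice exposed to 100% SBT with 3 from mice exposed to 1% SBT, over all 1117 OR genes of the deposited tables. These are 6 of the 51 libraries of the series, and no control library entered the contrast. In this method ribosomes are immunoprecipitated through phosphorylated ribosomal protein S6 (pS6), a mark of recently active neurons, and the mRNA they carry is sequenced, so that an OR whose olfactory sensory neurons (OSNs) were active takes a larger share of the OR reads. The mice were C57BL/6J, about 3 weeks old, of mixed sex and litter matched. They were habituated for 1 hr to an odor-free environment and then exposed for 1 hr to 10 μL of stimulus, and the whole olfactory mucosa was taken. SBT at 1% was diluted (v/v) in water. The controls of both doses, given beside the contrast as a background, were 3 mice exposed to diluent only, and an independent experiment compared 3 mice exposed to 0.01% SBT with 3 controls of its own.

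SBT is a thiazoline of male mouse urine that acts as a semiochemical, a compound with which animals of one species influence each other. Each OSN expresses a single OR gene out of a large family. ORs lie in clusters of related genes on many chromosomes, and as a rule a receptor with high affinity for an odorant responds at low concentrations, while further receptors of lower affinity join as the concentration rises. Class I ORs form a single large cluster on chromosome 7, and all other ORs are class II.

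The 6 libraries held 41426, 66366 and 63712 OR reads at 1% SBT (replicates 1 to 3) and 81626, 104517 and 57551 at 100% SBT. The library names carry 1 prefix for replicates 1 and 2 of each dose and another for replicate 3, and what the prefix stands for was not given in the sources used here. The library of replicate 1 at 1% SBT stood apart through 1 receptor, *Olfr545*, which took 14.4% of its OR reads (95% Wilson interval 14.06% to 14.74%, counting error only). Replicates of a dose differed from each other by more than counting noise in each pair, with chi-squared divided by its degrees of freedom between 5.316 and 19.43, and none was a copy of another. A share below is the percentage of a library's OR reads that fell on the OR in question. Shares are not scaled to transcript length and are compared only within a gene. In these bulk samples, more active OSNs of a type and more RNA recovered per OSN cannot be told apart.

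Many receptors rose from 1% to 100% SBT and few fell. Of the 1046 ORs that reached 10 reads when the 6 libraries were summed, 85 were higher (8.13%) and 10 were lower (0.956%) at 100% SBT past an adjusted p of 0.05 (edgeR quasi-likelihood test, Benjamini-Hochberg adjustment). The other 71 ORs were too sparse to test, and 27 of those had no read in the 6 libraries. Leaving out 1 library at a time gave 51 to 87 higher ORs, with 51 in the absence of 100% replicate 1. With mice of the same replicate number taken as pairs, 99 were higher and 16 lower. Within the 4 libraries of the first name prefix, 55 were higher and 6 lower, while the second prefix holds 1 library of each dose and allows no test. Without the TMM factors, that is scaled to total OR reads, 64 were higher and 17 lower, so that the part of the calls that was higher went from 89.5% to 79%, and the median log2 fold change over all tested ORs went from -0.05 to -0.31.

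The 85 higher ORs had log2 fold changes from 1.29 to 4.39 with a median of 2.16, and the 10 lower ORs from -6.64 to -1.16. Their summed shares give the size of the shift, as a description since the same reads chose them. The 85 together took 8.384%, 9.749% and 10.94% of OR reads in the 1% libraries and 33.36%, 34.02% and 30.82% in the 100% libraries. In libraries that the contrast did not use, the same 85 took 10.43%, 10.36% and 10.46% in the controls and 9.477%, 9.917% and 9.066% at 0.01% SBT. The mean was 10.42% in the controls, 9.69% ± 1.278 (SD, n = 3) at 1% SBT and 32.73% ± 1.689 at 100%. The gap between the doses follows from how the 85 were chosen, and that choice can enlarge it. The control and 0.01% libraries, which took no part in the choice, lay near the 1% libraries. The 3 libraries of each dose did not overlap in 124 ORs that were higher (11.9%) and in 154 that were lower at 100% (14.7%). Non-overlap in share was thus more frequent downwards than upwards, beside the rise in the summed share of the 85. The shares of a library add up to 100%, so a gain in some ORs lowers the share of the others. A lower share is therefore not by itself a loss particular to that receptor. How much of the downward non-overlap comes from this was not tested.

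**Figure D1:**
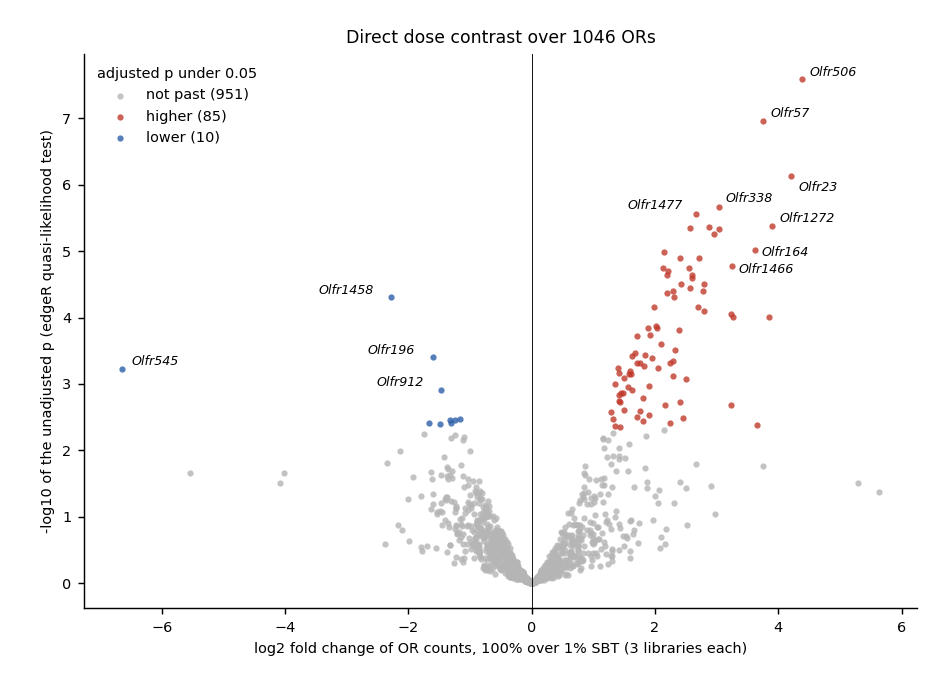
Log2 fold change of each of 1046 ORs between 100% and 1% SBT (x axis) against −log10 of its unadjusted p (y axis), from 3 libraries of each dose. Points in red (85) were higher and points in blue (10) lower past an adjusted p of 0.05, and the highest red points (*Olfr506*, *Olfr57* and *Olfr23*) lie above all blue points.

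The leading receptor was *Olfr506* (ENSMUSG00000058244, chr7:108610787-108615340, plus strand, GRCm38). It took 0.0338%, 0.0286% and 0.0596% of OR reads in the 1% libraries and 0.801%, 0.587% and 0.801% in the 100% libraries. The 1% values lay within or near the control values of 0.0522%, 0.0175% and 0.0366%, and the 100% values did not overlap with either group. The log2 fold change was 4.39 ± 0.42 (SE, n = 3 and 3), with an adjusted p of 2.71e-05 in edgeR's quasi-likelihood test.

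*Olfr57* (ENSMUSG00000060205, chr10:79028741-79036274, plus strand) followed, with 0.0459%, 0.0271% and 0.0534% at 1% and 0.497%, 0.509% and 0.445% at 100% (log2 fold change 3.76 ± 0.40, edgeR adjusted p = 5.76e-05). *Olfr23* (ENSMUSG00000069816, chr11:73936677-73942658, plus strand) took 0.00241%, 0.012% and 0.00942% at 1%, which rests on 1, 8 and 6 reads, and 0.157%, 0.127% and 0.11% at 100%. In *Olfr57* and *Olfr23* all 3 libraries at 1% SBT were below all 3 controls. The control values were 0.104%, 0.0752% and 0.0843% for *Olfr57* and 0.0568%, 0.0542% and 0.022% for *Olfr23*, whose dose contrast was 4.21 ± 0.53 on the log2 scale (edgeR adjusted p = 0.000262). Against the controls, the 1% values were not past the threshold for either gene (log2 fold changes -0.91 and -2.33, edgeR adjusted p = 0.994 and 0.596).

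Among the receptors that followed by p, *Olfr338* (chromosome 2) took 0.0241%, 0.0256% and 0.0267% at 1% SBT and 0.162%, 0.233% and 0.134% at 100%. *Olfr1272*, also on chromosome 2, took 0.0121%, 0.00452% and 0.011% at 1% and 0.118%, 0.149% and 0.0747% at 100%. *Olfr164* on chromosome 16 took 0.00483%, 0.00603% and 0.0141% at 1% and 0.0662%, 0.0928% and 0.113% at 100%. In each of these 3 the dose groups did not overlap. The log2 fold changes were 3.03 ± 0.41 for *Olfr338*, 3.90 ± 0.56 for *Olfr1272* and 3.62 ± 0.56 for *Olfr164*. The 1% values rest on 5, 3 and 7 reads for *Olfr1272* and on 2, 4 and 9 for *Olfr164*. Over the controls, the log2 fold changes at 100% SBT were smaller, at 2.81, 2.83 and 2.49 in the same order of genes. The other leading receptors were *Olfr1477* (2.67), *Olfr1087* (2.87), *Olfr706* (2.56), *Olfr11* (3.04), *Olfr112* (2.96), *Olfr1104* (2.15), *Olfr1054* (2.71), *Olfr96* (2.41) and *Olfr1466* (3.25), each value a log2 fold change between the doses.

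Receptors already well represented in the controls were among those that rose. *Olfr30* took 0.468%, 0.434% and 0.454% in the controls, 0.302%, 0.39% and 0.499% at 1% SBT and 1.52%, 1.63% and 1.5% at 100% (log2 fold change between doses 2.22 ± 0.37, edgeR adjusted p = 0.00116). *Olfr96* took 0.297%, 0.39% and 0.204% at 1% and 1.15%, 1.54% and 1.31% at 100%. In both genes the 1% libraries overlapped the control libraries, and the 100% libraries were apart from both. *Olfr20* was not well represented in the controls, with a mean share of 0.0406% beside a median of 0.0502% over all tested ORs. It took 0.154%, 0.226% and 0.0408% at 1%, against 0.0295%, 0.0665% and 0.0256% in the controls, so that 2 of the 3 libraries at 1% lay above the controls. At 100% it took 0.689%, 0.687% and 0.346% (log2 fold change between doses 2.29 ± 0.52, edgeR adjusted p = 0.00972), and in both odor groups replicate 3 was the lowest. A stretch of 50 bases is shared with another OR in 13.69% of the positions of *Olfr20*, most often with its neighbor *Olfr376*.

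**Figure D2:**
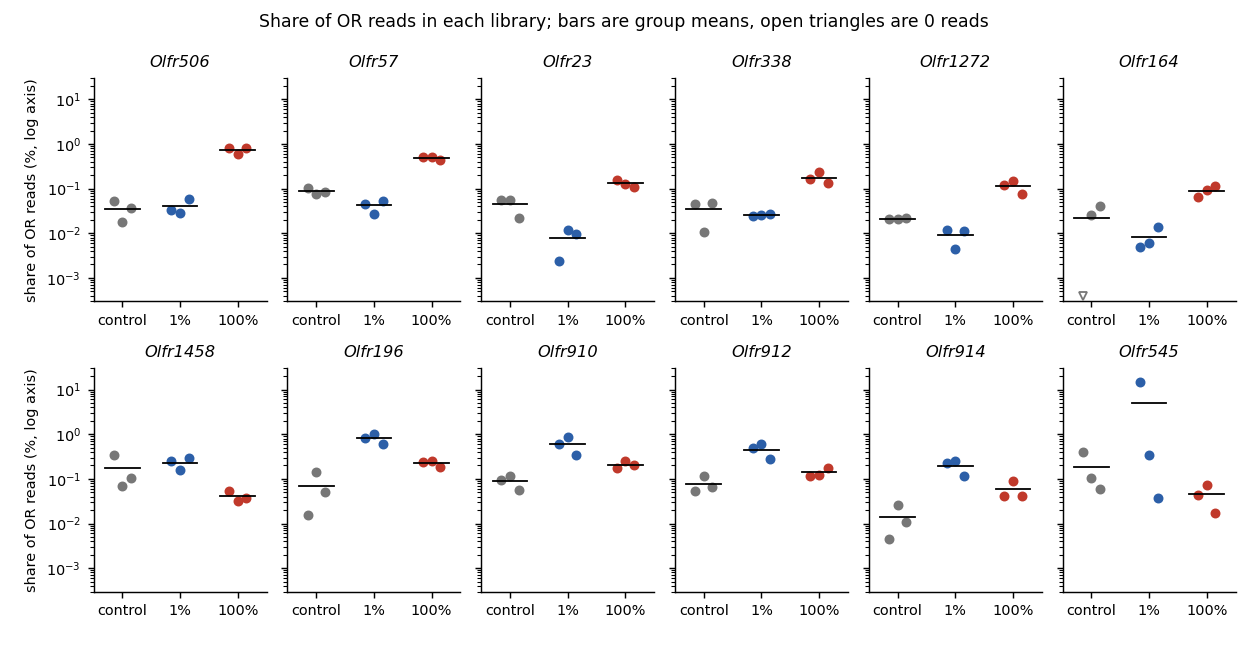
Share of OR reads (%, log axis) of 12 ORs in each of 3 control, 3 1% SBT and 3 100% SBT libraries, with points for libraries, a bar for the group mean and an open triangle for a library with 0 reads. The upper row shows receptors higher at 100% than at 1% SBT and the lower row receptors lower at 100%, where *Olfr196*, *Olfr910*, *Olfr912* and *Olfr914* are highest at 1%, and *Olfr545* is high in 1 library only.

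Several receptors that were above the controls at 1% SBT had a lower share at 100%. To place the receptors that fell next to their relatives, the 30 bases of coding sequence that encode the conserved motif at the inner end of the third transmembrane segment, a hallmark of ORs, are shown from the GRCm38 genome for *Olfr910*, *Olfr912* and *Olfr914*, which fell, and for *Olfr913*, which lies among them and rose. All are on the plus strand of chromosome 9, at chr9:38539248-38539277, chr9:38581630-38581659, chr9:38594574-38594603 and chr9:38606818-38606847 for *Olfr910*, *Olfr912*, *Olfr913* and *Olfr914*. Capitals mark bases that differ from *Olfr910*.
Olfr910: atggcctatgatcgctatgtggctatctgc
Olfr912: atggcTtatgatcgctatgtggctatctgc
Olfr913: atggcctatgatcgctatgtggcAatctgc
Olfr914: atggcctatgatcgctatgtggcCatTtgT
In this window *Olfr912* and *Olfr913* each differ from *Olfr910* at 1 base and *Olfr914* at 3. Over the whole coding sequence, *Olfr910* is 96.0% identical to *Olfr912*, 80.3% to *Olfr913* and 80.2% to *Olfr914*.

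*Olfr910* (ENSMUSG00000060114, chr9:38537849-38540820) took 0.618%, 0.857% and 0.345% of OR reads at 1% SBT and 0.173%, 0.25% and 0.2% at 100%. All 3 libraries at 100% were below all 3 at 1% and above all 3 controls, which had 0.0931%, 0.116% and 0.0549%. The log2 fold change between the doses was -1.30 ± 0.38 (SE), with an edgeR adjusted p of 0.0446. It passed in 1 of the 6 fits that left out a library and not with the controls in the fit, where these fits gave edgeR adjusted p-values up to 0.279. Its mean share was 0.207% ± 0.039 (SD, n = 3) at 100% and 0.607% ± 0.256 at 1%, and an exact two-sided permutation test on the shares gave p = 0.1, the smallest that 3 mice against 3 allow. Side by side, the log2 fold change over the controls was 2.88 at 1% (edgeR adjusted p = 0.0109) and 1.60 at 100% (0.00922), and in the separate 0.01% experiment it was 2.79 (8.67e-05). At 1% SBT 9 of 1043 ORs tested were higher than the controls (0.863%), and at 100% 111 of 1050 (10.6%).

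*Olfr912* (ENSMUSG00000111448, chr9:38580178-38586876) behaved alike, with 0.485%, 0.591% and 0.279% at 1% and 0.119%, 0.123% and 0.175% at 100%. The groups did not overlap, and the control values were 0.0522%, 0.117% and 0.0659%. The log2 fold change between the doses was -1.47 ± 0.37 (edgeR adjusted p = 0.0192), and the exact permutation test on the shares again gave its minimum, p = 0.1. The log2 fold changes over the controls were 2.63 at 1% SBT (edgeR adjusted p = 0.0115) and 1.19 at 100% (0.0717). Since 17.77% of the 50-base stretches of *Olfr910* also occur in another OR, nearly all in *Olfr912*, the split of reads between the 2 genes is uncertain.

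*Olfr914* (ENSMUSG00000047050, chr9:38605102-38610978) took 0.225%, 0.247% and 0.113% at 1% and 0.0416%, 0.0909% and 0.0417% at 100%, against 0.00454%, 0.0262% and 0.011% in the controls. The 3 groups did not overlap with each other, the 100% libraries lying between the others (log2 fold change between doses -1.48 ± 0.44, edgeR adjusted p = 0.046). *Olfr913*, singled out after its values were seen, took 0.0145%, 0.0558% and 0.0581% at 1% and 0.125%, 0.182% and 0.0956% at 100% (log2 fold change 1.90 ± 0.47, edgeR adjusted p = 0.0175). It lies 5883 bases from *Olfr912* and 8819 from *Olfr914*, and shares no 50-base stretch with another OR. Of the 37 other tested ORs within 500 kb of *Olfr910*, 3 were higher (*Olfr913*, *Olfr930* and *Olfr146*) and 2 lower (*Olfr912* and *Olfr914*), that is 8.11% higher beside 8.13% of all ORs and 5.41% lower beside 0.956%. Their median log2 fold change was -0.02 against -0.05 over all ORs.

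*Olfr196* on chromosome 16 (ENSMUSG00000096695, chr16:59166647-59170454, minus strand) took 0.801%, 1.02% and 0.59% at 1% SBT and 0.233%, 0.251% and 0.184% at 100%. The 3 libraries of each dose were apart from each other and all were above the controls (0.0159%, 0.14% and 0.0513%). The log2 fold change between the doses was -1.60 ± 0.36 (edgeR adjusted p = 0.00889). *Olfr1353* had the same order of groups, with 0.454%, 0.336% and 0.293% at 1% and 0.147%, 0.116% and 0.17% at 100%, above the controls (0.0341%, 0.0665% and 0.103%), but its log2 fold change of -1.11 ± 0.35 did not pass the threshold (edgeR adjusted p = 0.0683, and 0.034 with mice paired by number).

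*Olfr376* stands beside these as a receptor above the controls at 1% SBT that did not separate between 1% and 100%. Its log2 fold change over the controls was 1.87 at 1% (edgeR adjusted p = 0.0368) and 2.54 at 100% (0.000141). In the separate 0.01% experiment it was 0.41 and not past the threshold (edgeR adjusted p = 0.999). It took 0.671%, 1.09% and 0.766% at 1% and 1.31%, 0.925% and 1.07% at 100%, all above the controls (0.236%, 0.334% and 0.172%). The dose groups overlapped, and the log2 fold change of 0.64 ± 0.35 was not past the threshold (edgeR adjusted p = 0.392).

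A second set of receptors fell to or below the control level in mean share. *Olfr1458* on chromosome 19 (ENSMUSG00000062844, chr19:13101593-13106775, minus strand) had the lowest p of those that fell. It took 0.249%, 0.155% and 0.29% at 1% SBT and 0.0527%, 0.0316% and 0.0365% at 100%, against 0.338%, 0.0682% and 0.106% in the controls. All 3 libraries at 100% were below the other 6 (log2 fold change between doses -2.29 ± 0.41, edgeR adjusted p = 0.00178). It was the only one of the 10 lower ORs past the threshold in every alternative run, including each library left out in turn.

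*Olfr1258* on chromosome 2 took 0.456%, 0.701% and 0.584% at 1% SBT, close to the controls (0.547%, 0.567% and 0.626%), and 0.179%, 0.258% and 0.217% at 100% (log2 fold change -1.16 ± 0.33, edgeR adjusted p = 0.0416). Its neighbor *Olfr1259* took 0.157%, 0.208% and 0.166% at 1% and 0.0551%, 0.0507% and 0.0851% at 100% (log2 fold change -1.25, edgeR adjusted p = 0.0426). The controls of *Olfr1259* had 0.0318%, 0.0945% and 0.0989%, below all its libraries at 1%. The doses did not overlap in either gene. The coding sequences of this pair are 68.9% identical. *Olfr1385* (-1.32, chromosome 11) and *Olfr722* (-1.67, chromosome 14) also passed, with edgeR adjusted p-values of 0.0418 and 0.0446. Against the controls, *Olfr1258* passed the threshold at 100% SBT (log2 fold change -1.015, edgeR adjusted p = 0.0272). By the same test, *Olfr1458* (-1.71, 0.0719), *Olfr722* (-1.26, 0.153), *Olfr1385* (-0.60, 0.517) and *Olfr1259* (0.16, 0.906) did not. Of the 50-base stretches of *Olfr1385*, 20.11% also occur in another OR, most often *Olfr1386*. Leaving out 1 library changed the count of 10 lower ORs to 1 (without 100% replicate 1), 2 (without 100% replicate 3 or 1% replicate 1), 4 (without 100% replicate 2 or 1% replicate 2) and 17 (without 1% replicate 3). Of the 6 fits that left out a library, *Olfr1385* passed in 0, *Olfr1258*, *Olfr1259*, *Olfr722*, *Olfr910* and *Olfr912* in 1 each, *Olfr914* in 2 and *Olfr196* in 4. *Olfr914*, *Olfr1259* and *Olfr722* also missed the threshold once *Olfr545* was removed from the table.

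*Olfr545* (class I, ENSMUSG00000044824, chr7:102491466-102499573, minus strand) was far above the other libraries in a single mouse. It took 14.4%, 0.336% and 0.0377% of OR reads at 1% SBT, 0.0441%, 0.0727% and 0.0174% at 100% and 0.395%, 0.103% and 0.0586% in the controls. The dose groups overlapped, since replicate 3 at 1% lay within the range of the 100% libraries. The log2 fold change was -6.64 ± 1.54 (edgeR adjusted p = 0.011), and it ranged from -7.22 to -1.59 as single libraries were left out. It did not pass without replicate 1 at 1% SBT, without 100% replicate 1 or without 100% replicate 3. *Olfr544*, whose coding sequence is 90.4% identical and with which *Olfr545* shares most of its 10.62% of shared 50-base stretches, took 1.54% of OR reads in the same library and 0.173% and 0.144% in the other 1% libraries. With *Olfr545* removed from the table, 88 ORs were higher and 6 lower.

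The most abundant receptor of the controls, *Olfr140*, took 3.28%, 3.53% and 3.45% there, 2.68%, 2.61% and 2.78% at 1% and 1.32%, 1.46% and 1.15% at 100%. The 3 groups were in descending order without overlap, yet the log2 fold change between the doses (-0.80 ± 0.37) did not pass the threshold (edgeR adjusted p = 0.268). *Olfr642* and *Olfr749* likewise did not overlap between doses and did not pass. *Olfr642* had a log2 fold change of -1.31 (edgeR adjusted p = 0.0669, and 0.0134 with mice paired by number), and *Olfr749* took 0.217%, 0.371% and 0.226% at 1% and 0.0907%, 0.129% and 0.12% at 100% (edgeR adjusted p = 0.0979). Of the ORs that the study names for other exposures, *Olfr1295* had 0.159%, 0.145% and 0.111% at 1% and 0.0735%, 0.0622% and 0.0608% at 100% (log2 fold change -0.84, edgeR adjusted p = 0.257). The musk receptors *Olfr1437* (0.73) and *Olfr235* (-0.31) had log2 fold changes with edgeR adjusted p-values of 0.483 and 0.849, and their dose groups overlapped.

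Receptors next to each other on a chromosome often rose together. Of the 85 higher ORs, 54 (63.5%) had another higher OR within 100 kb, compared with 328 of all 1046 tested (31.4%). The clusters named here were picked out after their values were seen. On chromosome 11, 6 of 7 tested ORs between *Olfr389* and *Olfr23* were higher (chr11:73774849-73942658), namely *Olfr389*, *Olfr390*, *Olfr392*, *Olfr393*, *Olfr394* and *Olfr23*. Of these *Olfr390* took 0.181%, 0.104% and 0.116% at 1% and 0.526%, 0.611% and 0.424% at 100%, without overlap. On chromosome 17, within the OR cluster linked to the major histocompatibility complex, *Olfr107*, *Olfr110*, *Olfr111* and *Olfr112* were higher among 5 tested (chr17:37399226-37569451). Of these, *Olfr110* and *Olfr111* share 542 stretches of 50 bases, so the split of reads between them is uncertain. On chromosome 16, *Olfr178*, *Olfr180* and *Olfr181* were all 3 of the tested ORs between chr16:58888308-58929392. Here *Olfr178* and *Olfr180* share 212 stretches of 50 bases with each other, so their reads can be split between them. Of all 95 ORs past the test, 20 shared more than 10% of their 50-base stretches with another OR and 13 shared none.

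Single receptors went against their neighbors. On chromosome 19, 7 of 10 tested ORs between *Olfr1449* and *Olfr1463* were higher (chr19:12930840-13236400), and *Olfr1458* was lower among them. *Olfr1457*, 3702 bases away, took 0.0217%, 0.0377% and 0.0188% at 1% and 0.103%, 0.166% and 0.0747% at 100% (log2 fold change 2.39 ± 0.48). *Olfr1459*, 31246 bases away on the other side, took 0.0579%, 0.17% and 0.115% at 1% and 0.354%, 0.25% and 0.271% at 100% (log2 fold change 1.62 ± 0.38). The hallmark windows of these receptors with opposite changes, on the minus strand at chr19:13102928-13102957, chr19:13095263-13095292 and chr19:13146283-13146312 in the order listed, are shown with capitals for bases that differ from *Olfr1458*.
Olfr1458: atggcctatgaccgctatgcagcagtatgt
Olfr1457: atggcctatgaTcgctatgcagcagtGtgt
Olfr1459: atggcctatgaTcgctatgcagcagtGtgt
The 2 receptors that rose have the same 30 bases here, although over the whole coding sequence *Olfr1458* is 87.3% identical to *Olfr1459* and 73.8% to *Olfr1457*. *Olfr1458* shares 0.32% of its 50-base stretches with other ORs. On chromosome 16, *Olfr196* lies 43680 bases from *Olfr199* (2.60) and 95659 from *Olfr201* (2.06), both of which rose on the log2 scale and are 96.9% identical to each other, but 65.0% identical to *Olfr196*. *Olfr199* and *Olfr201* share 259 stretches of 50 bases, so the split of reads between them is uncertain.

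**Figure D3:**
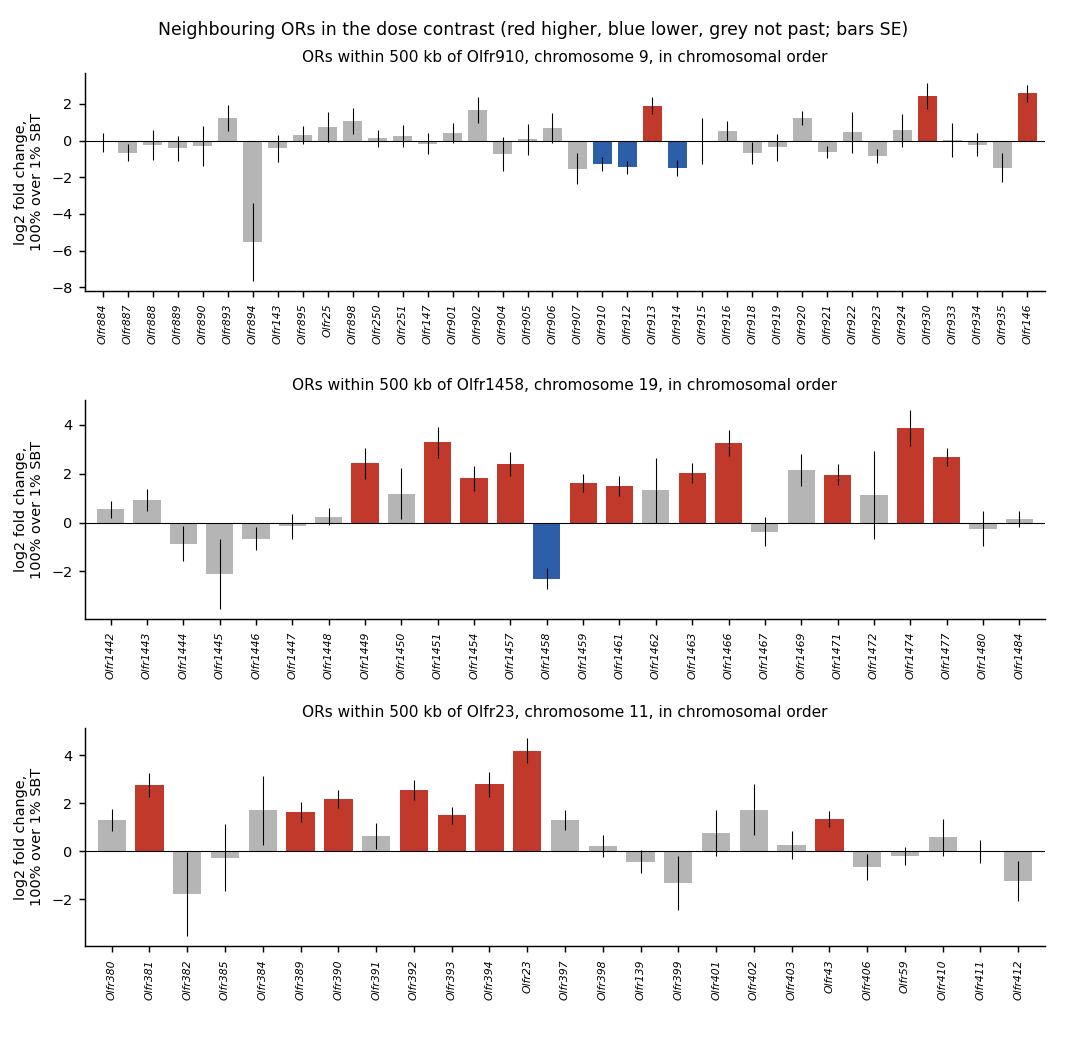
Log2 fold change between 100% and 1% SBT (bars, with SE) of the tested ORs within 500 kb of *Olfr910*, *Olfr1458* and *Olfr23*, in chromosomal order, red for higher, blue for lower and grey for not past the test. *Olfr913* rises between *Olfr912* and *Olfr914*, *Olfr1458* falls among 11 higher ORs, and *Olfr23* ends a run of higher ORs.

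By chromosome, the share of tested ORs that were higher, beside 8.13% of all, was 24.3% on chromosome 16 (9 of 37), 20% on chromosome 19 (12 of 60), 15.4% on chromosome 11 (12 of 78) and 14.6% on chromosome 17 (7 of 48). It was 6.82% on chromosome 2, 5.41% on chromosome 7 and 2.9% on chromosome 10 (2 of 69). Of the 26, 22 and 27 tested ORs of chromosomes 1, 4 and 6, edgeR and DESeq2 called 0 in either direction, and at an unadjusted p under 0.05 chromosome 1 had 0, chromosome 4 had 1 higher and 1 lower, and chromosome 6 had 1 higher. The median log2 fold change was 0.36 on chromosome 16 and 0.24 on chromosome 11, against -0.05 over all ORs, and -0.36 on chromosome 10. Scaled to total OR reads, where the median of all ORs is -0.31, the chromosome 11 median turned to -0.04, while that of chromosome 16 stayed positive at 0.14 and that of chromosome 10 was -0.61.

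**Figure D4:**
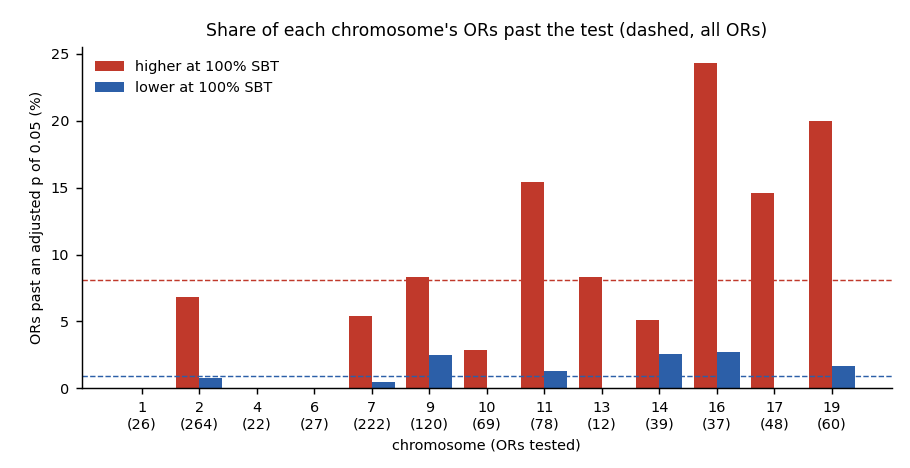
Percent of the tested ORs of each chromosome with at least 10 tested that were higher (red) or lower (blue) at 100% than at 1% SBT past an adjusted p of 0.05, with the number tested in brackets and dashed lines for all ORs. Chromosomes 16, 19, 11 and 17 lie well above the dashed red line at 8.13%, chromosomes 9 and 13 (8.33% each) just above it, and chromosomes 1, 4 and 6 have no call.

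The class I ORs, taken by position as the 127 OR genes of their cluster on chromosome 7, held no receptor that rose past the threshold. Of 118 tested, 0 were higher, beside 8.13% of all ORs, and 1 (*Olfr545*) was lower (0.847%, beside 0.956% of all ORs) in edgeR's quasi-likelihood test. DESeq2 gave 0 higher and 2 lower. At an unadjusted p under 0.05, 2 of the 118 were higher and 7 lower, beside 132 and 49 of all 1046. Their median log2 fold change was -0.31, against -0.05 over all tested ORs. With total OR reads it was -0.53 against -0.31, with DESeq2 -0.33 against -0.09, and with paired mice -0.23 against -0.01. In 26 of the 118 (22%) the libraries at 100% were all below those at 1%, beside 14.7% of all ORs, and in 4 (3.39%) all above, beside 11.9%.

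Experiments that share no library with the dose contrast gave lists of receptors for a lower SBT dose and for other odors. After 0.01% SBT, 5 of 1072 tested ORs were higher than their controls (0.466%), namely *Olfr910*, *Olfr912*, *Olfr921*, *Olfr196* and *Olfr714*. In the dose contrast 3 of these 5 were lower (*Olfr196*, *Olfr910* and *Olfr912*), 0 were higher (also 0 with DESeq2 and at an unadjusted p under 0.05), and the median log2 fold change was -1.30. The count of 3 fell to 0 without 100% replicate 1 or 100% replicate 3 and to 1 without 100% replicate 2, 1% replicate 1 or 1% replicate 2 and with the controls in the fit. *Olfr921*, which lies near *Olfr910* on chromosome 9, took 0.205%, 0.289% and 0.436% at 1% and 0.182%, 0.17% and 0.153% at 100%, without overlap, with a log2 fold change of -0.62 that was not past the threshold (edgeR adjusted p = 0.408). *Olfr714* had a log2 fold change of -0.20 ± 0.88 on few reads, and its sign turned in 4 of 18 alternatives. Of the 85 ORs that rose between the doses, 0 passed edgeR's test at 0.01% SBT and 0 had an unadjusted p under 0.05 there. Of the 1045 ORs tested in both experiments, 5 were higher past the threshold at 0.01% SBT. At an unadjusted p under 0.05, 22 of the 1045 were higher and 7 lower. With so few calls in all, the 0 of 85 is a description only. The median log2 fold change of the 85 over the 0.01% controls was 0.04, beside -0.0015 for the 1045.

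Of the 9 ORs higher after 2,5-dimethylpyrazine (2,5-DMP), a urinary pyrazine (0.841% of 1070 tested), 2 rose between the SBT doses. All 9 log2 fold changes were positive, with a median of 0.64, although scaled to total OR reads 2 of the 9 turned negative and the median was 0.38. The 2 were *Olfr502* (2.61 ± 0.44), which took 0.041%, 0.0331% and 0.0188% at 1% and 0.12%, 0.185% and 0.174% at 100%, and *Olfr694* (1.64, edgeR adjusted p = 0.00865). Of the 19 ORs higher after (E)-β-farnesene, a sesquiterpene semiochemical of male urine (1.77% of 1071), 3 rose and 1 fell between the SBT doses, with a median of 0.21 that turned to -0.04 when scaled to total OR reads. *Olfr11* took 0.121%, 0.0663% and 0.0471% at 1% SBT and 0.47%, 0.694% and 0.473% at 100%. *Olfr706* took 0.101%, 0.0648% and 0.11% at 1% and 0.409%, 0.467% and 0.519% at 100%, and *Olfr701*, in the same cluster, had a log2 fold change of 1.42 (not past the threshold when scaled to total OR reads). *Olfr1259*, described above, was the one that fell.

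Of the 6 ORs higher in the DHB experiment (0.564% of 1064), *Olfr46* rose between the SBT doses (log2 fold change 1.40 ± 0.32, edgeR adjusted p = 0.011, not past the threshold when scaled to total OR reads), with 0.142%, 0.176% and 0.159% at 1% and 0.355%, 0.366% and 0.339% at 100%. The list also holds *Olfr1353*, and its median was -0.10. Of the 3 ORs higher after 100 μM (methylthio)methanethiol (MTMT), a sulfur semiochemical of male urine (0.281% of 1068), 0 passed edgeR's test or DESeq2 between the SBT doses, 1 was higher and 1 lower at an unadjusted p under 0.05, and the median was -0.12. These lists are short, and the counts are a description beside 8.13% higher and 0.956% lower over all ORs.

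**Figure D5:**
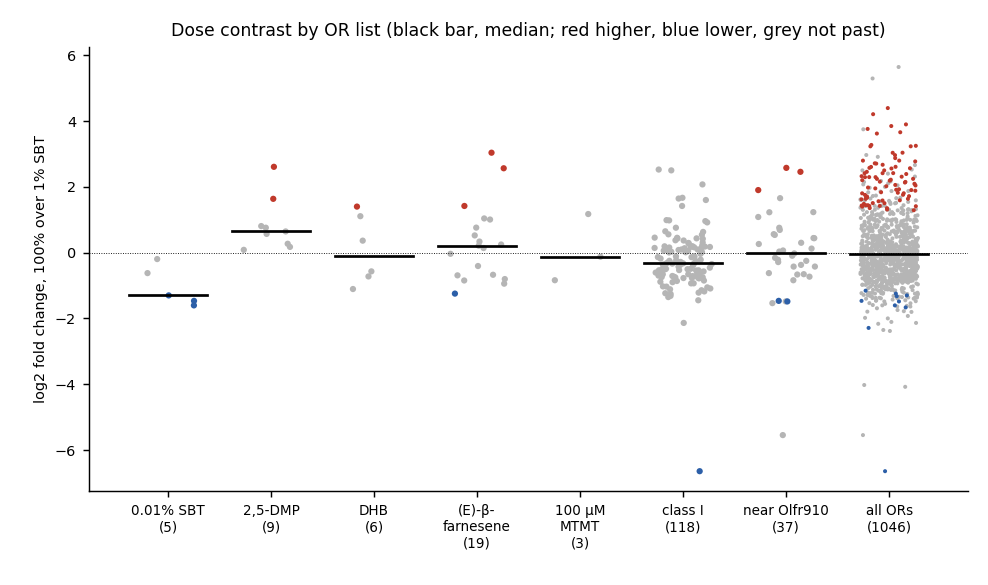
Log2 fold change between 100% and 1% SBT (y axis) of the ORs of each list, with the number tested in brackets, a black bar for the median, red for higher and blue for lower past an adjusted p of 0.05. All 5 ORs of the 0.01% SBT list lie below 0, although *Olfr714* changes sign in alternatives, all 9 of the 2,5-DMP list lie above 0 with TMM factors, and the class I ORs hold no red point.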

How the data were processed

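Libraries were made from pS6 immunoprecipitates of whole olfactory mucosa and grouped by the odor in the labels. The expected counts were deposited by the authors as whole numbers: STAR alignments to GRCm38.p6, with the GENCODE M25 annotation less 1 gene model, had been quantified per gene with RSEM, and the tables hold OR genes only, without normalization. Versions of these tools were not given in the sources used here. The authors' own fold changes and p-values and 6 per-sample columns matching no sample were not used.

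Counts were compared with edgeR 4.0.16 (R 4.3.3): TMM over ORs, at least 10 reads over the libraries compared, glmQLFit and glmQLFTest, with Benjamini-Hochberg adjustment over the ORs tested. The SE is the log2 fold change divided by the square root of F. The test was also run on simulated data with the same dispersion for all ORs, and the outcome is not used here as support. Alternatives were blocks by replicate number or name prefix, 1 prefix alone, total OR reads, DESeq2 1.42.0, no filter, filterByExpr, likelihood ratio and exact tests, controls or all SBT libraries in the fit, removal of *Olfr545*, and each library left out. Permutation tests and Wilson intervals (95%) used scipy 1.17.1.

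Deviations from the dose means of mice with the same replicate number correlated at 0.12, 0.12 and 0.17, each above 0.1. On this weak ground the numbers were taken as pairing mice in the alternative with the replicate block. The main fit, the fits that left out a library and the permutation tests were unpaired. The mice are described as litter matched, but what a number marks was not given. Named ORs are up to 15 with the lowest p in each direction, those the study names, those of earlier results and those of the 0.01% SBT list. The members and lists were chosen with earlier results of these data known. Positions came from GENCODE M21, which matched all 1117 ORs by Ensembl ID, and sequences from the GRCm38 genome.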

Additional observations from a re-analysis of the deposited data

How the results depend on the processing

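The count of 85 higher ORs stayed within 1.5 times under all alternatives except 2, the libraries of the first name prefix alone (55) and the fit without 100% replicate 1 (51). It ranged from 51 to 87 when 1 library was left out. All 85 kept their sign in each alternative that tested them, and 45 passed without any 1 of the libraries. The 18 named ORs among them passed in all 18 alternatives, but most of them were named for having the lowest p in these same libraries. The count of 10 lower ORs was less firm. It was 16 with the replicate block, which kept all 10, and 16 with DESeq2, which gave *Olfr545* no adjusted p, 17 with total OR reads, 17 with the exact test, 20 with the likelihood ratio test, 6 with the first prefix alone, 4 with the controls in the fit and 6 without *Olfr545*. With 1 library left out it ranged from 1 to 17. All 10 kept their sign throughout. The cause of these differences was not tested. The replicate block ended no call, and among the named ORs it brought *Olfr642* and *Olfr1353* past the threshold. Signs turned for 2 named ORs that passed nowhere. The log2 fold change of *Olfr714* was 0.013 with the prefix block and 0.20 with the first prefix alone, and ranged from -0.87 to 0.92 (0.37 without 100% replicate 1) with 1 library left out. That of *Olfr235* ranged from -0.58 to 0.47 with 1 library left out (0.0013 without 100% replicate 1). The depth of 41426 to 104517 OR reads leaves low receptors such as *Olfr23* at 1 to 8 reads in a 1% library. The number of mice limits the exact permutation tests on shares to a smallest p of 0.1.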
